A study of Rattus norvegicus with 241 samples.

Results

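The basal compartment of the mammary gland of young Sprague Dawley (SD) rats was profiled by bulk RNA-seq on the day a short course of a TGFβ receptor inhibitor (TGFBRi) ended. The rule took every bulk library of basal cells from SD rats at day 0 with no carcinogen, which gave 8 of the 241 samples of the series, 4 from vehicle-treated and 4 from TGFBRi-treated rats. The treated rats were kept as a single group of 4. All were virgin females; dosing began at about 24 days of age, and TGFBRi (LY2157299, spelled LY22157299 in the labels, 75 mg/kg) or vehicle was given by gavage 2 times a day for 10 days. Basal cells were sorted as live CD31-CD45-CD24+CD29high cells from digested glands, and each library is 1 rat. Luminal cells of the same 8 rats, basal cells of 6 young ACI rats at day 0 (3 vehicle, 3 TGFBRi; dosed in the same way from about 35 days of age) and single-cell libraries of the basal sort of 9 other young SD rats at day 0 (3 vehicle, 6 TGFBRi) served for comparison.

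TGFβ ligands bind a type II receptor, which activates the type I receptor that the inhibitor blocks; the type I receptor then phosphorylates SMAD2 and SMAD3, which enter the nucleus with SMAD4. In the mammary gland the pathway restrains epithelial growth and promotes matrix production. Basal cells are the contractile outer layer of the ducts, adjoin the basement membrane and hold cells with stem-like activity.

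The 8 basal libraries held 13830353 to 17523197 reads on genes. Values are normalized read counts, which are reads divided by one scaling factor per library; means are given ± SD over the 4 rats of a group. Basal keratins were abundant, with KRT14 at 31290 ± 5938 in vehicle basal cells against 9413 in the luminal sort. Markers of other cell types were also measured in the sort, and from which cells their RNA came was not tested. The 14 fibroblast markers measured summed to between 373700 and 596900 in the vehicle rats and between 187900 and 628100 in the treated rats, against 5542 to 25110 in the luminal sort, and none of them was at 0 in all 8 rats. The 15 basal epithelium markers summed to between 224800 and 269700 in the vehicle rats and between 143900 and 290000 in the treated rats. In every vehicle rat the fibroblast sum was above the basal sum, and most of the fibroblast sum was COL1A1 and COL3A1. The 21 leukocyte markers summed to 496 to 1247, with 2 at 0 in all 8 rats. In bulk samples, fewer cells of a type and less RNA per cell cannot be told apart.

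No gene passed the main test between treated and vehicle basal cells. By limma on log2(value + 1), 0 of 12571 genes reached an adjusted p of 0.05 (0.0% called), and 494 (3.93%) had an unadjusted p below 0.05, 234 of them higher (1.86%) and 260 lower (2.07%) in treated rats. edgeR on the recovered reads also called 0 of 12820 genes (485, or 3.78%, below an unadjusted 0.05). DESeq2 on the same reads called 4 of 12820 (0.0312%), among them FBLN1 lower and ZFAND2A and UPK3A higher; DESeq2 was the most permissive of the 3 tools in this design, and with all 8 rats neither of the others called these genes. In 156 genes every treated rat lay above every vehicle rat (1.24%) and in 155 every treated rat lay below (1.23%). The median log2 fold change of all genes was -0.02, with 47.3% of genes above 0. The balance varied with the method, at 53.4% above 0 by edgeR and 54.6% by DESeq2, which had 336 genes higher and 218 lower at an unadjusted p below 0.05, and without treated rat 1 limma had 502 higher and 790 lower.

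FBLN1 encodes fibulin-1, a secreted glycoprotein of the extracellular matrix and basement membrane. Its normalized read count was 1305, 1003, 834 and 943 in vehicle rats 1 to 4 and 619, 369, 420 and 376 in treated rats 1 to 4. All 4 treated rats lay below all 4 vehicle rats. The treated mean was 0.437 of the vehicle mean (446 ± 118 against 1021 ± 202), a log2 fold change of -1.21 (SE 0.20) with an adjusted p of 0.980 by limma and 0.000696 by DESeq2. FBLN1 is also a fibroblast product. The fibroblast sum, of which COL1A1 and COL3A1 made up 91.7 to 96.1% in each rat, was 483000, 596900, 373700 and 486300 in vehicle rats and 187900, 309400, 628100 and 306000 in treated rats. The part of fibroblast RNA in the FBLN1 result was not tested.

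ZFAND2A, a proteasome-associated protein induced by arsenite and other proteotoxic stress, read 1433, 1578, 1367 and 1617 in vehicle rats against 2139, 2235, 3055 and 2335 in treated rats. The groups did not overlap. The treated mean was 1.63 times the vehicle mean (log2 fold change 0.69, SE 0.15; adjusted p 0.980 by limma and 0.0496 by DESeq2).

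UPK3A encodes uroplakin 3A, a membrane protein best known from the urothelium. No read fell on it in any vehicle basal library, and the treated rats had 54, 61, 219 and 4 reads (normalized read counts of 42.4, 47, 158 and 2.6). With the floor set at 3 reads over the vehicle group, UPK3A was at least 117-fold higher in the treated group, of whose 338 reads treated rat 3 held 219. Without treated rat 3, a setting chosen after seeing the data, the bound was 54.6-fold, and treated rat 4 lay near the floor. For all 4 treated rats, DESeq2 gave an adjusted p of 3.84e-06, limma 0.980 and edgeR 0.991. Without treated rat 4 it was the 1 gene that limma called. The luminal cells of the same treated rats carried far more of it, at 1119, 1029, 2369 and 8.4, against 0 to 4.7 in luminal cells of vehicle rats. Treated rat 4 was the low rat in both sorts. In treated rats 1 to 3 the basal level was 3.79, 4.57 and 6.69% of the luminal level of the same rat, and in treated rat 4, with 4 basal and 7 luminal reads, it was 31.5%. In the basal libraries of treated rats 1 to 4 the luminal keratin KRT18 stood at 3.95, 6.63, 3.70 and 5.70% of its luminal level, and the summed luminal markers at 13.5, 22.7, 10.8 and 13.7%. UPK3A in treated rats 1 to 3 was thus below the share of the summed markers in the same rat, and on either side of the share of KRT18. The part of luminal RNA in the UPK3A result was not tested.

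**Figure D1:**
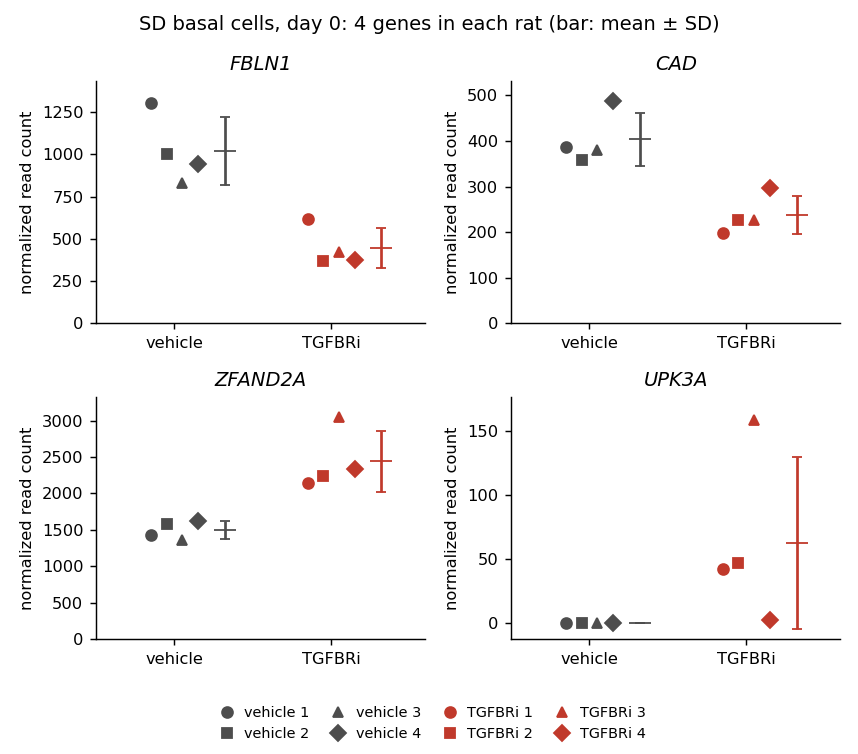
Normalized read count (y axis) of 4 genes in each of the 4 vehicle (grey) and 4 TGFBRi (red) rats, with the group mean ± SD as a bar. Treated and vehicle rats do not overlap in any panel, which was a condition for choosing leading genes. UPK3A is at 0 in every vehicle rat and spans 2.6 to 158 in treated rats.

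Of FBLN1, ZFAND2A and UPK3A, 2 have a promoter in the RefSeq table of the GRCr8 assembly, whose coordinates differ from the rn6 build used for the reads. The 250 bases before the start are shown, with the SMAD core motif CAGAC (either strand) in capitals, since it is the sequence to which the factors downstream of the blocked receptor bind. UPK3A lies on the plus strand at chr7:118014540-118014789 and ZFAND2A on the plus strand at chr12:20275200-20275449.
UPK3A: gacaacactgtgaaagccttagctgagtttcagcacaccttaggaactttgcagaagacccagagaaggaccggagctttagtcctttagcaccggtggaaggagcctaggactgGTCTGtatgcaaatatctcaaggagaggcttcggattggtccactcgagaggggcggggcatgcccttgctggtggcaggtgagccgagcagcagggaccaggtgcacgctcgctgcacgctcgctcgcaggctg
ZFAND2A: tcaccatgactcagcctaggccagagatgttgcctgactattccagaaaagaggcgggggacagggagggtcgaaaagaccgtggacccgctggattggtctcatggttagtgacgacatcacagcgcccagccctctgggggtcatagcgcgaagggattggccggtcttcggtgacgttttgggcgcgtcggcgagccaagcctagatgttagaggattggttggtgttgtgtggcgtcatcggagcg
UPK3A held 1 copy of the motif, starting 135 bases before the start, and ZFAND2A held none. The motif stood in 42.9% of all 33469 windows of this length and in 9 of the 16 windows found for the 20 leading genes. The heat shock element was searched only in the form GAANNTTC, because ZFAND2A is a stress gene. This form was in 7.23% of all windows and in 0 of those 16. The same ends in the opposite order were not counted, and the ZFAND2A window shown above holds them at the same spacing. The 0 is therefore no count of heat shock elements in every form.

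The remaining leading genes were those with the smallest limma p among genes with a group mean of at least 50 whose groups did not overlap, up to 10 in each direction; all had an adjusted p of 0.980. Among the higher genes, UBR1, an E3 ubiquitin ligase of the N-degron pathway, measured 204, 147, 189 and 220 in vehicle rats and 359, 236, 401 and 306 in treated rats. The lowest treated rat was thus only slightly above the highest vehicle rat. ANO6, a phospholipid scramblase, averaged 713 ± 163 in treated and 471 ± 32.8 in vehicle rats. PRRG4 and EXOC2, the latter a subunit of the exocyst, were 1.47 and 1.52 times the vehicle mean. ZC3H7A was at 1013 ± 191 in treated and 677 ± 101.1 in vehicle rats. FRY was 2.33 times the vehicle mean at a low level (66.4 ± 18.6 in treated and 28.5 ± 6.80 in vehicle rats).

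Among the lower genes, CAD, the enzyme that carries out the first steps of pyrimidine synthesis, measured 388, 358, 381 and 487 in vehicle rats and 199, 226, 227 and 296 in treated rats. Its treated mean was 0.588 of the vehicle mean (log2 fold change -0.77, SE 0.18). ARMCX2 (log2 fold change -1.26, SE 0.32), the kinesin KIF3C (-1.25, SE 0.31) and RASSF2, a RAS association domain protein (-1.76, SE 0.47), had larger differences at lower counts, with vehicle means of 117, 173 and 88.5. CYBRD1, a ferric reductase, the complex I assembly factor NDUFAF5, TPGS1 and the ribosomal protein RPLP1 were at 0.663, 0.595, 0.673 and 0.674 of the vehicle mean. NDUFAF5 was the tightest of these in treated rats, at 102.1, 112.5, 103.5 and 105.7.

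The second feature of the data was the spread among treated rats. Over all genes tested, pairs of vehicle rats correlated at 0.963 to 0.971 (Pearson's r of log2 values across genes, 6 pairs), pairs of treated rats at 0.914 to 0.943 (6 pairs), and pairs across groups at 0.941 to 0.960 (16 pairs). These genes are not independent replicates, and the r is a description. The SD of log2 values within a group had a median of 0.28 in vehicle and 0.43 in treated rats, and it was larger in treated rats for 75.4% of genes (76.4% of the 9265 genes with a mean of at least 50). Genes with a value above 0 numbered 12609 to 12666 in the vehicle libraries and 11809 to 12473 in the treated libraries, which did not overlap; the part of this in the spread was not tested. In the luminal sort of the same rats the vehicle pairs spanned 0.885 to 0.973 and the treated pairs 0.895 to 0.952, so the gap between groups seen in basal cells was not seen there.

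**Figure D2:**
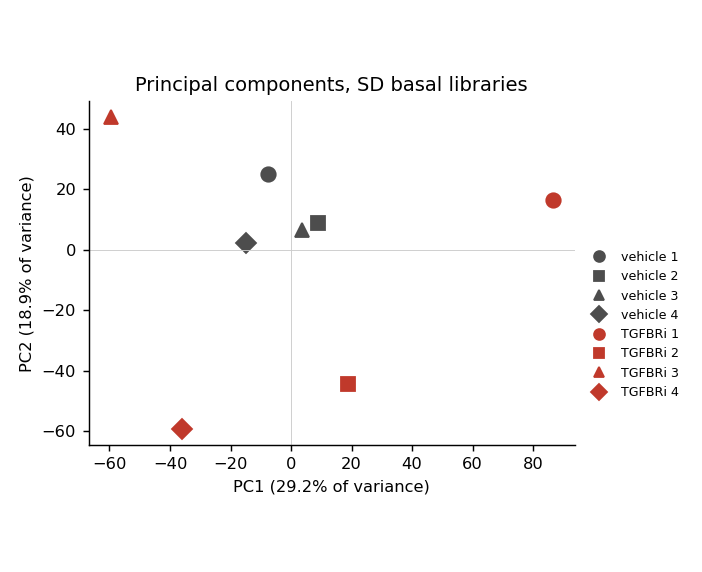
First and second principal components of log2(value + 1) in the 8 SD basal libraries (axes with their share of variance; grey vehicle, red TGFBRi, one symbol per rat number). The 4 vehicle rats lie between -14.72 and 8.88 on PC1, and the treated rats between -59.55 and 86.44.

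Named gene groups were highest or lowest in single treated rats. Of 40 G2/M phase genes, which drive mitosis, 34 had their highest level of all 8 rats in treated rat 1 and 36 had their lowest in treated rat 4; over all genes tested the shares were 18.4% and 16.4%. Their summed level was 9249, 8054, 9764 and 7152 in vehicle rats and 14580, 4485, 7589 and 2613 in treated rats. The treated rats thus lay on both sides of the vehicle range, over a 5.58-fold span against 1.36-fold. S phase genes followed, with 29 of 33 highest in treated rat 1 and 20 lowest in treated rat 4. MKI67, a marker of cycling cells, averaged 451 ± 122 in vehicle and 516 ± 541 in treated rats, while 39 of the 40 G2/M genes had a log2 fold change below 0 (median -0.72). Without treated rat 1 the G2/M median was -1.19, and without treated rat 4 it was -0.13. The mean and the log scale differed in direction for MKI67, whose log2 fold change was -0.45 (SE 0.69).

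Treated rat 3 stood apart in another set. The study describes a population of secretory basal cells (SBCs), and its SBC signature, drawn by the authors from single-cell data of this series and so not independent of the study, had 304 genes tested here. Of these, 245 were highest in treated rat 3 and 171 were lowest in treated rat 1 (19.9% and 17.6% over all genes). The summed level was 0.817 to 1.09 of the vehicle mean in vehicle rats and 0.538, 0.751, 1.49 and 0.841 in treated rats 1 to 4. PROCR, the endothelial protein C receptor and a mark of stem-like basal cells, gave 3546, 2105, 3167 and 3217 in vehicle rats and 1398, 2941, 18098 and 6260 in treated rats. EPAS1, the hypoxia-inducible factor 2α, gave 981, 609, 685 and 1054 against 382, 619, 3203 and 1362. S100A4 gave 1247, 1067, 792 and 905 against 742, 301, 2622 and 1106. In all 3 the groups overlapped because treated rats lay both above and below the vehicle rats, and the log2 fold changes were 0.65 (SE 0.63), 0.31 (SE 0.55) and -0.14 (SE 0.52). By edgeR and DESeq2 PROCR was at 1.26 and 1.27 and EPAS1 at 0.75 and 0.76. Without treated rat 3 those of PROCR and EPAS1 by limma were -0.0003339 and -0.24, and without treated rat 2 that of S100A4 was 0.39.

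Markers of other cell types also differed between these rats. The fibroblast sum was 187900, 309400, 628100 and 306000 in treated rats 1 to 4, the Schwann and nerve sum was 15430, 13110, 43170 and 33720, and the adipocyte sum was 746, 1380, 5492 and 3036. The endothelium sum was 2993, 4227, 8839 and 6322, with 9 of 17 genes highest of all 8 rats in treated rat 3 and 10 lowest in treated rat 1. Of 11 smooth muscle and pericyte markers 10 were highest in treated rat 3 and 9 lowest in treated rat 1, although their sum was 27840, 33410, 31480 and 33280. Basal epithelium markers went the other way, with 289400, 290000, 143900 and 242800 and 11 of 15 genes lowest in treated rat 3. In whole-gland single-cell data, the study found the SBC signature high in fibroblasts and endothelial cells as well as in some basal cells. The part of other cell types in the SBC values was not tested.

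**Figure D3:**
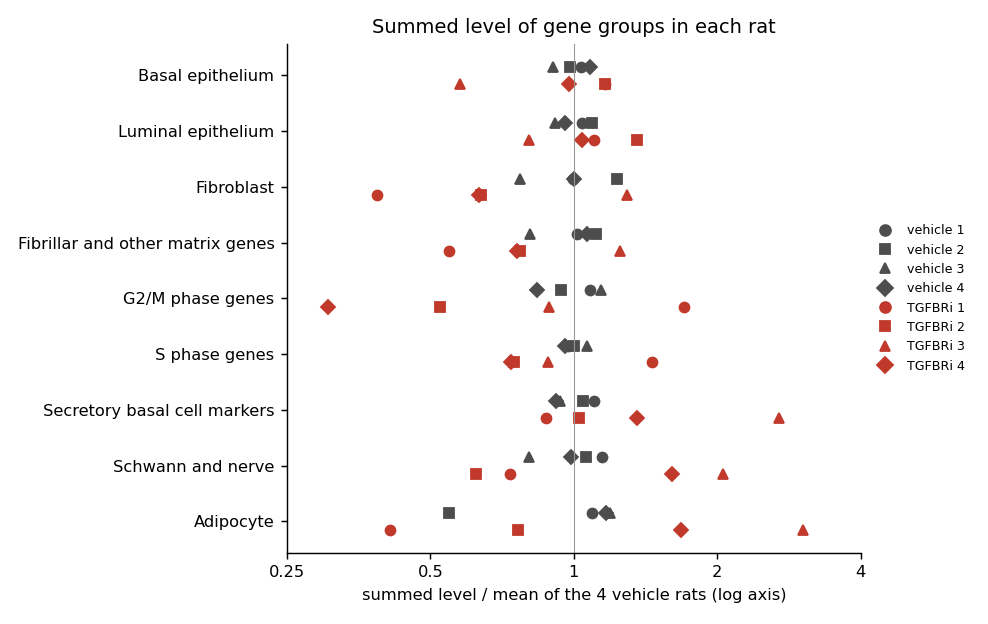
Summed normalized read count of 9 gene groups in each rat, divided by the mean of the 4 vehicle rats (log axis; grey vehicle, red TGFBRi). Vehicle rats lie between 0.547 and 1.23, while treated rats range from 0.305 to 1.70 in the G2/M genes and from 0.876 to 2.69 in the secretory basal cell markers.

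The pathway that the drug targets showed no called gene at the RNA level. RNA levels do not measure the phosphorylation of SMAD2 and SMAD3. The study reports lower phospho-SMAD3 by immunofluorescence in treated glands of ACI rats. Among 8 ligands, 6 had a log2 fold change above 0 (median 0.29), and TGFB2 gave 218, 167, 121 and 222 in vehicle rats against 196, 246, 363 and 437 in treated rats (log2 fold change 0.74, SE 0.29; limma p 0.0271 unadjusted, adjusted 0.980). TGFB1 and TGFB3 had log2 fold changes of 0.26 (SE 0.33) and -0.06 (SE 0.41). The receptors TGFBR1, TGFBR2 and TGFBR3 differed by 0.21 (SE 0.17), 0.21 (SE 0.18) and 0.17 (SE 0.19). SMAD2, SMAD3 and SMAD4, which carry the signal, differed by 0.08, -0.02 and 0.11, and SMAD7, which feeds back on the receptor, by 0.26 (SE 0.33).

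Of 28 TGFβ target genes, 12 had a log2 fold change above 0 (47.3% of all genes), none had an unadjusted p below 0.05 (3.93% of all genes) and none was separated between groups (1.24% of all genes upward and 1.23% downward), with a median of -0.03. These counts lie near those of all genes. CTGF, a matricellular target, gave 3015, 4164, 3255 and 1263 in vehicle rats and 1619, 5076, 1583 and 1299 in treated rats (-0.40, SE 0.46). PMEPA1, a membrane protein that limits SMAD signalling, gave 4764, 2177, 5731 and 1143 against 2798, 8721, 2694 and 4812 (0.55, SE 0.53). Treated rat 2 was the highest of all 8 for CTGF and PMEPA1. TGFBI gave a log2 fold change of -0.05 (SE 0.48). The group of ID genes and of BMP ligands, receptors, antagonists and targets had 11 of 14 above 0 (median 0.17). ID1 was at 0.21 (SE 0.41) and ID3 at 0.23 (SE 0.43), which were -0.19 and -0.13 without treated rat 3. Among 11 feedback genes and inhibitors 6 were above 0, and among 12 genes of latent TGFβ binding and activation 6 were above 0.

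Matrix genes lay mostly below 0. Of 39 fibrillar and other matrix genes, 7 had a log2 fold change above 0 and 32 below (median -0.30), against a median of -0.02 over all genes tested; 4 had an unadjusted p below 0.05, all lower (2.07% of all genes), and 2, FBLN1 and COL16A1, were separated downward (1.23% of all genes). Single treated rats held most extremes of the group: 22 of the 39 genes were highest of all 8 rats in treated rat 3, 18 were lowest in treated rat 1 and 13 in treated rat 4. Its summed level was 0.808 to 1.11 of the vehicle mean in vehicle rats and 0.547, 0.771, 1.25 and 0.758 in treated rats 1 to 4. COL16A1, a fibril-associated collagen, gave 8491, 8577, 8100 and 8177 in vehicle rats and 6505, 6586, 7436 and 6609 in treated rats (log2 fold change -0.30, SE 0.12). LUM, lumican of the collagen fibrils, gave 5764, 4892, 3640 and 5456 against 1762, 2449, 5574 and 1638 (-0.96, SE 0.35), so treated rat 3 lay among the vehicle rats. COL7A1, the anchoring fibril collagen, was at 651 ± 177 against 952 ± 165 (-0.57, SE 0.21). Of 14 fibroblast markers 13 were below 0 (median -0.52), FAP among them (-1.08, SE 0.39). Of the 14 markers, 11 were lowest in treated rat 1 and 8 highest in treated rat 3. The part of fibroblast RNA in the matrix values was not tested.

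**Figure D4:**
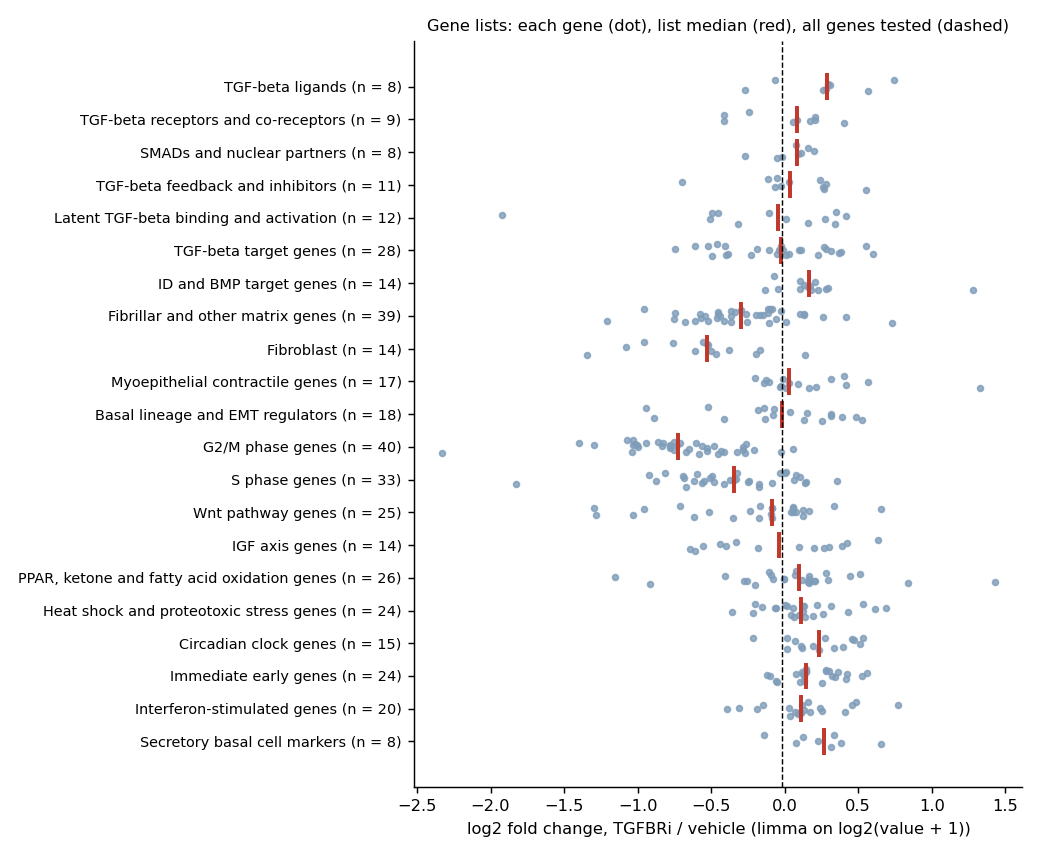
Log2 fold change (TGFBRi over vehicle, limma on log2(value + 1)) of each tested gene in 21 gene lists, with the list median in red and the median of all genes tested, -0.02, as a dashed line. The G2/M, fibroblast, S phase and fibrillar matrix lists have medians of -0.72, -0.52, -0.35 and -0.30, and limma called none of the genes shown, while DESeq2 called some, FBLN1 and ZFAND2A among them.

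Lineage genes gave mostly small differences. Basal epithelium markers had 6 of 15 above 0 (median -0.01). The binding protein IGFBP2 differed most and was the 1 member with an unadjusted p below 0.05 (-0.55, SE 0.23; p 0.0350, adjusted 0.980). The keratin KRT5 was at 0.01 (SE 0.24), KRT14 at -0.10 (SE 0.27), the smooth muscle actin ACTA2 at -0.03 (SE 0.25) and TP63, the basal transcription factor, at -0.41 (SE 0.26). Luminal markers had 11 of 21 above 0 (median 0.01), with KRT8 at 0.13 (SE 0.22) and EPCAM at -0.02 (SE 0.20). KRT18 gave 2030, 1985, 2368 and 2005 in vehicle rats and 2316, 2803, 2726 and 2855 in treated rats (0.35, SE 0.13; limma p 0.0214 unadjusted, adjusted 0.980), with vehicle rat 3 just above treated rat 1. Myoepithelial contractile genes had 10 of 17 above 0 (median 0.03). The furthest was MYOCD, a coactivator of smooth muscle genes, at 1.33 (SE 1.02). Its level was low (26.6 ± 24.8 in treated and 11 ± 8.33 in vehicle rats). LMOD1, an actin nucleator, followed at 0.56 (SE 0.30).

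Growth and metabolic groups held a few genes with a small unadjusted p, and their counts are read against all genes tested, of which 1.86% were higher and 2.07% lower at an unadjusted p below 0.05, 1.24% were separated upward and 1.23% downward, and 47.3% had a log2 fold change above 0. In the IGF axis 7 of 14 were above 0 (median -0.04). An unadjusted p below 0.05 was found for 3 of the 14, all lower. These were the receptor IGF2R (382 ± 59.4 against 517 ± 80.3) and the binding proteins IGFBP2 (27350 ± 9712 against 38380 ± 2752) and IGFBP5 (2021 ± 351 against 3353 ± 1529). IGF1 itself had a log2 fold change of -0.40 (SE 0.35), and its receptor IGF1R one of 0.39 (SE 0.23). In the Wnt group 10 of 25 were above 0 (median -0.09). An unadjusted p below 0.05 was found for 2 of the 25, both lower. These were the transcription factor LEF1 (-1.03, SE 0.40) and the secreted antagonist SFRP2 (-0.62, SE 0.25). Of 26 PPAR, ketone and fatty acid oxidation genes 15 were above 0 (median 0.10) and 4 were separated upward, among them the oxidation enzymes ACADM and ACADVL, each by 0.16. In lipogenesis THRSP gave 178, 130, 172 and 178 against 258, 291, 199 and 554, and the desaturase SCD 47.7, 77.5, 88 and 52.5 against 41.6, 2.3, 26.8 and 1.3. Both were separated, in opposite directions. Circadian genes had 14 of 15 above 0 (median 0.23), with TEF at 0.47 (SE 0.16). Their summed level was 0.953 to 1.081 of the vehicle mean in vehicle rats and 0.945, 1.125, 1.438 and 1.226 in treated rats. Treated rat 1 thus lay just below every vehicle rat. Immediate early genes had 20 of 24 above 0 (median 0.15), with MYC at 0.56 (SE 0.22). Of the 24 immediate early genes, 16 were lowest of all 8 rats in treated rat 1, while 12 and 10 were highest in treated rats 3 and 4. Their summed level was 0.871 to 1.14 of the vehicle mean in vehicle rats and 0.711, 0.950, 1.53 and 1.58 in treated rats, on both sides of the vehicle range. Heat shock genes had 17 of 24 above 0 (median 0.11), and 1 of the 24, ZFAND2A, was separated.

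The comparison with the luminal cells of the same rats asked whether the effect differed between the lineages. The limma test of basal minus luminal effects called 0 of 13400 genes (0.0%), with 242 (1.81%) at an unadjusted p below 0.05, and edgeR also called 0, which does not show that the effects were alike. Of the 10 leading higher genes 9 were above 0 in luminal cells too, against 50.3% of all genes above 0 in basal cells, and of the 10 lower genes 9 were below 0, against 65.2% of all genes below 0 in basal cells. None of them was called there, and the luminal libraries come from the same rats that chose these genes. FRY and UPK3A had passed the filter on the mean only through treated basal cells, and the shares over all genes have no such filter. FBLN1 had a luminal log2 fold change of -0.76 (SE 0.93).

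The comparison with basal cells of ACI rats asked whether the effect differed between the 2 sets of rats. The ACI rats were also older, at about 35 against 24 days at the first dose, so strain and age cannot be told apart. Each strain was scaled in its own table, so only the difference of within-strain effects was tested. By limma 626 of 14483 genes (4.32%) had a different effect, 464 with a higher effect in SD (3.2%) and 162 with a lower one (1.12%). The count ran from 127 without ACI vehicle rat 2 to 2507 without ACI treated rat 3, and leaving out 1 library moved it by over 1.5 times for 11 of the 14 libraries. In ACI basal cells alone 1638 of 15308 genes were called (10.7%). The ACI libraries were uneven in depth, with 18200891, 18781674 and 12382292 reads in vehicle rats and 6562769, 4194912 and 15136358 in treated rats. Genes above 0 numbered 13484, 12612 and 14603 against 15058, 15297 and 14020. The part of depth in the ACI calls and in the differences between the strains was not tested. FBLN1 fell in ACI rats (435, 412 and 363 in vehicle rats; 143, 38.3 and 165 in treated rats; log2 fold change -2.04, SE 0.49, adjusted p 0.0200 by limma), and the test of the difference between strains gave an adjusted p of 0.332. ZFAND2A had an ACI log2 fold change of 0.50 (SE 0.22, adjusted p 0.160). Of the 10 higher genes all 10 were above 0 in ACI rats, against 63.7% of all genes above 0 in SD rats, with PRRG4, ZC3H7A and FRY called. FRY and UPK3A had passed the filter on the mean only through treated SD rats, and the share over all genes has no such filter. Of the 10 lower genes 9 were below 0, against 55.7% of all genes below 0 in SD rats, with FBLN1 and RPLP1 among those called. RPLP1 was the one leading gene with a different effect (SD -0.60, ACI -1.87; difference 1.27, adjusted p 0.0211). KRT5 also differed, at 0.01 in SD and -1.44 in ACI (adjusted p 0.0487). The genes with the smallest p of the difference included BCAM, APRT, SERF2, OST4 and IFI27. Their ACI log2 fold changes were -1.77 (IFI27) and below, and their SD log2 fold changes ran from -0.07 to -0.24. The others were ORAI2, APBB1IP, SLFN13, NHS and CAB39L, whose treatment effect was higher in ACI than in SD rats.

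**Figure D5:**
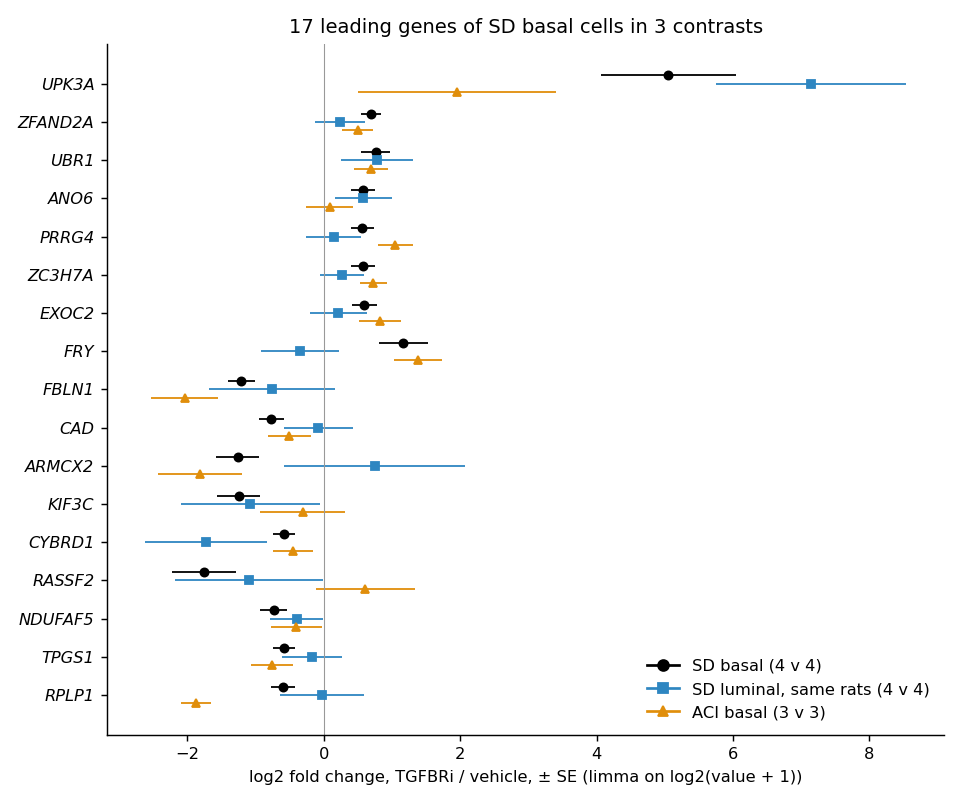
Log2 fold change ± SE (limma) of 17 leading genes of SD basal cells in SD basal cells (black circles), luminal cells of the same rats (blue squares) and ACI basal cells (orange triangles). FBLN1 is below 0 in all 3, at -1.21, -0.76 and -2.04, and FRY, RASSF2 and ARMCX2 lie on the other side of 0 in one contrast each.

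The single-cell libraries of the same sort came from 3 vehicle and 6 treated SD rats that were not among the 8, with 563 to 3677 cells each, and 2 to 19 cell barcodes of each library also occurring in another. Every deposited cell had at least 2 keratin UMIs and none had a PTPRC UMI, so these sums hold a keratin-selected set of cells, while the bulk sort was not selected in this way. Counts were summed per rat. edgeR called 1775 of 14585 genes (12.2%), 886 higher (6.07%) and 889 lower (6.10%), but without vehicle rat 1 it called 19 and without vehicle rat 3 it called 31. The direction of these calls depends on the scaling. With each library scaled to its total count in place of TMM, a setting chosen after seeing the data, edgeR called 2954, 231 higher and 2723 lower, and the median log2 fold change of all genes moved from 0.07 to -0.32. FBLN1, lower in the bulk libraries, was at 12.3 ± 7.44 CPM (UMI counts scaled to one library total) in treated and 5.86 ± 2.26 in vehicle rats. Its log2 fold change was 1.49 (adjusted p 0.0834) by edgeR with TMM and 1.10 (adjusted p 0.165) with total scaling. DESeq2 on the summed counts called it higher (1.469, adjusted p 0.02516), opposite to the DESeq2 call in bulk. ZFAND2A was at 72.9 ± 47.6 against 44.7 ± 6.15 CPM. Its log2 fold change was 1.15 (adjusted p 0.136) by edgeR with TMM, 0.71 (adjusted p 0.261) with total scaling and 1.135 (adjusted p 0.06485) by DESeq2. UPK3A had 0 counts in the vehicle rats and 1 in the treated rats. With TMM, 5 of the 9 leading higher genes tested were above 0, against 49.7% of all genes above 0 in bulk SD basal cells. Of the 10 lower genes 3 were below 0, against 35.7% of all genes below 0 in bulk. None was called in its bulk direction. With total scaling the counts were 4 of 9 (30.0%) and 3 of 10 (54.1%). Of the leading genes, UBR1 was called lower and RPLP1 higher under both scalings, each opposite to its bulk direction. NDUFAF5 was called higher with TMM (adjusted p 0.0445) but not with total scaling (0.227). The genes with the smallest p were ribosomal, with RPS2 at 6610 against 3049 CPM, RPL12 at 1958 against 901 and RPL28 at 2351 against 1137, called higher under both scalings. All 3 lost their call without vehicle rat 1 or without vehicle rat 3. In the bulk SD libraries these had log2 fold changes of -0.31, -0.18 and -0.22.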

How the data were processed

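Sorted SD basal cells were profiled by low-input RNA-seq (SMARTer v4, under 10 ng RNA). Per the labels and the study's methods, the authors aligned reads to rn6 with STAR 2.5.1b, counted them per gene with HTSeq without strand and divided the counts by DESeq2 1.30.1 size factors; the deposited bulk values are this normalized signal, scaled together with luminal and later carcinogen-treated libraries. Values were whole multiples of a per-library step (100% within 0.001), so reads were recovered. The deposited single-cell files hold UMI counts per cell, filtered by the authors to cells with at least 2 keratin UMIs and no PTPRC UMI, with no further doublet removal here. The main test was limma 3.58.1 (trend, robust) on log2(value + 1), for genes whose values summed to at least 10, with Benjamini-Hochberg adjustment at 0.05; a fold change on this scale understates low genes. edgeR 4.0.16 and DESeq2 1.42.0 ran on recovered reads, and edgeR on single-cell sums. The tests were checked on simulated data, where DESeq2 made more false calls in the SD basal design than limma or edgeR, so its adjusted p-values are read with that limit. Leading genes were chosen by smallest limma p among non-overlapping genes with a mean of at least 50, up to 10 per direction; from each of 44 lists up to 4 were eligible, and 5 per direction from the other comparisons. Members and lists were chosen with earlier results of these data known. The luminal and basal libraries of a number come from the same rat. The correlation of their deviations was 0.054 to 0.165. Rats are separate animals. The ± SD values are spread between rats. The SE of a log2 fold change is limma's standard error of the difference, with variance borrowed across genes. Counting limits cover counting error only. A few genes that the rules select are not reported here.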

Additional observations from a re-analysis of the deposited data

Results flagged for a closer look

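Of 116 groups of 4 rats examined, 7 held a rat farther from the other 3 than Dixon's criterion allows, which is close to the rate that chance gives at a 95% level. CTGF, the matricellular TGFβ target, was at 5076 in treated rat 2, with a gap to the next rat of 0.915 of the group's range. CYBRD1, the ferric reductase, was at 267.9 in treated rat 1 (gap 0.866). KRT14 was at 40150 in vehicle rat 4 (gap 0.877) and KRT18 at 2368 in vehicle rat 3 (gap 0.883). The leukocyte markers summed to 496 in treated rat 4 (gap 0.900), the adipocyte markers to 991 in vehicle rat 2 (gap 0.853), and the skeletal muscle markers to 2218 in vehicle rat 2 (gap 0.894).

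The treatment effect differed between SD and ACI basal cells for 626 genes by the limma test of the difference. RPLP1, a protein of the large ribosomal subunit, was the one leading gene among them, with an SD effect 1.27 above the ACI effect on the log2 scale (adjusted p 0.0211).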

How the results depend on the processing

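In SD basal cells the count of called genes was 0 in the limma test and stayed 0 in every alternative run except DESeq2 (4) and the fit without treated rat 4 (1, UPK3A), so that leaving out single rats gave 0 to 1. The number of genes at an unadjusted p below 0.05 rose from 494 to 1292 without treated rat 1, to 818 without treated rat 3, and to 892 with sample quality weights, an alternative chosen after seeing the data in which these 2 rats weighed 0.431 and 0.502. The 17 leading genes reported kept their sign in all 19 alternatives. They were chosen as genes whose groups did not overlap, so leaving out a rat could not turn the sign. Their kept sign is therefore no test of these genes. The median log2 shift of all genes was -0.02 in limma, 0.026 in edgeR and 0.035 in DESeq2.

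The luminal and basal libraries pair by rat. With the rat as a replicate block the basal minus luminal comparison called 0 genes, with 278 at an unadjusted p below 0.05 against 242.

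The SD minus ACI count of 626 was 1038 by DESeq2 and 334 by limma without trend and robust options. It was 127 to 2507 with single libraries left out, with 168 and 1174 without ACI vehicle rats 1 and 3, 263, 249, 273 and 267 without SD vehicle rats 1 to 4, and 328, 323 and 960 without SD treated rats 1 to 3. The single-cell count of 1775 was 3088 by DESeq2, 2954 with total scaling (7.82% of them higher, against 49.9%), and 19 to 2440 with single rats left out, with 31 without vehicle rat 3 and 577 and 503 without treated rats 11 and 12. The cause was not tested for any of these.

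Some uncalled genes in SD basal cells changed sign. For PROCR, EPAS1, ID1 and ID3, at 0.65, 0.31, 0.21 and 0.23 in the limma test, this happened without treated rat 3 alone, for KRT8 (0.13) without treated rat 2 alone, and the other genes were between -0.14 and 0.01. ID1 and ID3 were at 0.45 and 0.46 by edgeR. By edgeR, DESeq2 and the quality weights the log2 fold change was 0.0504, 0.0591 and 0.07951 for ACTA2, 0.0047, 0.0125 and 0.0357 for EPCAM, and 0.0054, 0.01406 and 0.0141 for SMAD3. TGFBI was at 0.27, 0.28 and 0.0417. By edgeR and DESeq2 S100A4 was at 0.25 and 0.26 and TGFB3 at 0.10 and 0.11, and KRT14 was at 0.0273 with the weights. With single rats left out, log2 fold changes ran from -0.25 to 0.21 for ACTA2, -0.24 to 0.78 for EPAS1, -0.13 to 0.15 for EPCAM, -0.19 to 0.54 for ID1 and -0.13 to 0.67 for ID3. The ranges were -0.22 to 0.19 for KRT14, -0.13 to 0.27 for KRT5, -0.06186 to 0.31 for KRT8, -0.0003339 to 1.23 for PROCR and -0.65 to 0.39 for S100A4. They were -0.24 to 0.14 for SMAD3, -0.44 to 0.23 for TGFB3 and -0.50 to 0.43 for TGFBI. The red blood cell list had no value with a mean of at least 10.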
